A study of Mus musculus with 12 samples.

Results

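Among the genes that carried YTHDF1 peaks in the striatum of both cocaine-treated and saline-treated mice, 49 had a low ratio of cocaine to saline peaks, from fewer peaks in cocaine than in saline up to 2.5 times as many. They were chosen by their peak counts: genes listed in both treatments whose mean number of peaks in the 3 cocaine libraries was at most 2.5 times the mean in the 3 saline libraries. Symbols of opposite-strand RNAs, Rik clones and Gm models were left out. These 49 are among 251 genes listed in both treatments and 1247 listed in either. The median ratio over all 251 was 4.54. Of the 49, 36 have a symbol and 13 are known in the tables by an Ensembl identifier alone. All 36 are protein-coding in the RefSeq annotation of GRCm38.p6, a share that the exclusion of those symbols largely fixes. The pattern for opposite-strand symbols also removed the coding gene Uros, at a ratio of 2.27, and the Rik pattern removed 1700022I11Rik, at 2.45.

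The mice were C57BL/6J of wild-type genotype and received cocaine or saline. The tissue was striatum, lysed whole, although its labelled cell type is striatal neurons. The study's 12 samples form 4 groups of 3, YTHDF1 CLIP and input RNA for each treatment, and only the 6 CLIP libraries have values here. CLIP crosslinks protein to RNA with ultraviolet light and sequences the RNA that an antibody against the protein recovers. The sources used here state no dose, schedule, age or sex, and do not say whether each library came from its own animal.

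YTHDF1 reads N6-methyladenosine, the commonest internal methylation of messenger RNA. The mark is written co-transcriptionally by the Mettl3 and Mettl14 complex, often near stop codons and in long exons, and YTHDF1 in the cytoplasm is known for promoting the translation of marked messages. In neurons it is known for roles in synaptic plasticity and learning, and the striatum is the main target of midbrain dopamine neurons, which cocaine acts on. A peak is a place where sequenced CLIP fragments pile up. A gene's count is the number of such places, not the number of fragments, and has no correction for how abundant its RNA was.

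The cocaine libraries held between 24770 and 25528 peaks in listed genes and the saline libraries between 3720 and 3944. The reads behind them are unknown, so a ratio near 1 is low against the ratio of other genes and is not a measured absence of change in binding. A change in a gene's binding and this difference in totals cannot be told apart from the tables. To be listed, a gene had a mean of at least 6.33 peaks in cocaine or 1.33 in saline. As a check of the labelled tissue, 1 of 14 striatal neuron markers was listed (Gad1, with 5, 2 and 2 peaks in the saline libraries). Drd1, Drd2 and Ppp1r1b were in neither table. Among the other marker lists, only astrocytes had a lower share listed (0 of 6). Microglia had 2 of 6, endothelium 2 of 5, oligodendrocytes 1 of 6 and cortical neurons 1 of 5. Cx3cr1 of microglia, listed in cocaine alone, had counts of 25, 27 and 36. For Cnp of oligodendrocytes the counts were 29, 43 and 44 with cocaine but 4, 3 and 3 with saline. The check thus did not single out striatal neurons, and the cells behind the peaks were not tested. No member is among the markers of striatal neurons, astrocytes, oligodendrocytes, microglia, endothelium or cortical neurons that were searched.

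The ratios of the 49 ran from 0.657 to 2.5, with a median of 1.61. They were below 1 in 8 genes, from 1 to 1.5 in 15, above 1.5 and up to 2 in 14, and above 2 in 12. The member nearest the limit was Dmd, at 2.5, preceded by ENSMUSG00000086946 at 2.37 and Sipa1l1 at 2.32. Just outside it lay Vps13b at 2.53, Tcte2 at 2.54, Abhd15 at 2.62 and Angpt2 at 2.63, so the limit separates no gap in the values. These ratios chose the genes and are given as a description, with no test.

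**Figure D1:**
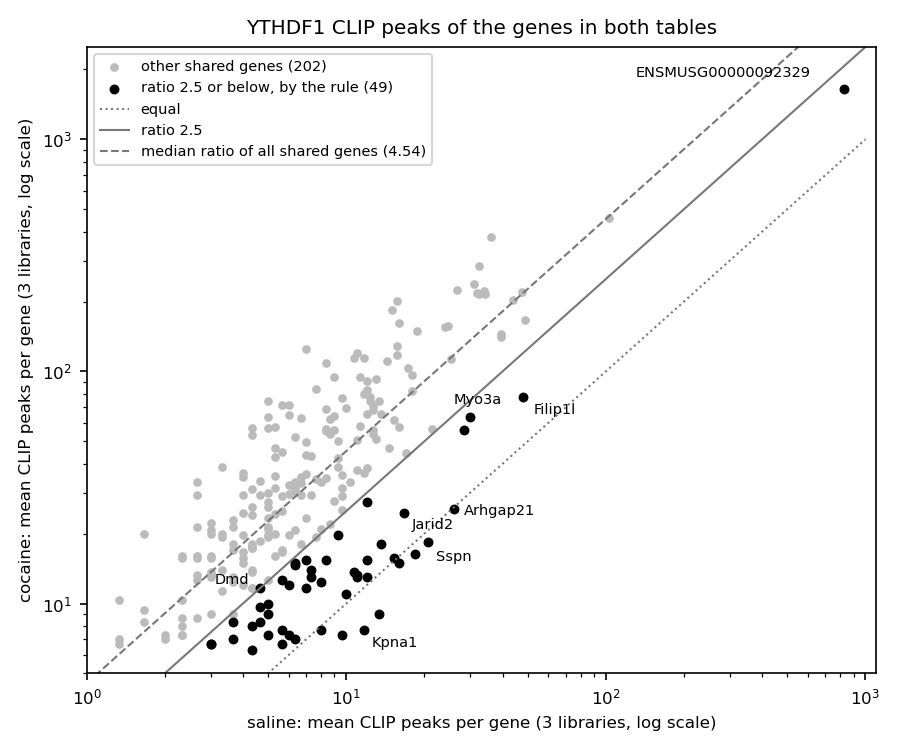
Mean CLIP peaks per gene in saline (horizontal) and cocaine (vertical), both on log scales, for the 251 genes in both tables; each point is the mean of 3 libraries per treatment. The 49 members (black) lie on or under the solid line at a ratio of 2.5 and below the dashed line at the median ratio of 4.54, and 8 lie under the dotted line of equal counts.

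The largest count belonged to a gene with no symbol in the tables, ENSMUSG00000092329. It had 1562, 1584 and 1789 peaks in the cocaine libraries and 794, 768 and 914 in the saline libraries, a ratio of 1.99. It ranked first of the 251 in both treatments. The other 48 members all ranked nearer the top in saline than in cocaine, as did 56 of the 202 other shared genes, and the limit on the ratio fixes this difference. ENSMUSG00000092329 alone held 25.2% ± 1.55 of the shared genes' peaks in saline and 11.9% ± 0.866 in cocaine (SD, n = 3 libraries each). The direction of that difference also follows from the limit.

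Because of that gene, sums over the members are given with and without it. All 49 had 2306, 2303 and 2582 peaks in the cocaine libraries and 1305, 1274 and 1420 in the saline libraries. The other 48 had 744, 719 and 793 in cocaine and 511, 506 and 506 in saline, which is a ratio of 1.48. Of the shared genes' peaks outside ENSMUSG00000092329, these 48 held 20.7% ± 0.286 in saline and 6.16% ± 0.335 in cocaine. The limit on the ratio fixes the direction of this difference, so these shares are a description.

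The nuclear and RNA-handling genes Kpna1, Zc3h7a and Atf2 had about as many peaks in saline as in cocaine or more, and Jarid2 had fewer. Kpna1 encodes an importin alpha, an adaptor that carries proteins with a nuclear localisation signal into the nucleus. It had 5, 7 and 11 peaks in the cocaine libraries and 11, 12 and 12 in the saline libraries, the lowest ratio of all (0.657). The groups touch at 11 peaks. Kpna1 was the only one of 43 nuclear transport genes listed in either treatment. It lies on chromosome 16 from 35983288 to 36037136 (GRCm38.p6) and overlaps the non-coding Gm15564.

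Zc3h7a, which encodes a CCCH-type zinc finger protein that binds RNA, had 18, 16 and 15 peaks in cocaine against 17, 21 and 17 in saline. Its means were 16.3 ± 1.53 and 18.3 ± 2.31 (SD, n = 3). The groups overlap. Atf2, a bZIP transcription factor that binds cyclic AMP response elements, had 7 peaks in each cocaine library and 4, 7 and 8 in saline. It was the only one of 38 ATF, CREB, AP-1 and related bZIP genes listed, and Creb1, Fos and Fosb, which are much studied after cocaine, were in neither table. Jarid2, a cofactor of the Polycomb repressive complex that methylates histone H3, had 25, 25 and 24 peaks in cocaine against 16, 12 and 22 in saline. Every cocaine library of Jarid2 was above every saline library, with a ratio of 1.48.

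Filip1l, Myo3a and Arhgap21, which act on the cytoskeleton, cell junctions or the Golgi, had the 3 largest saline counts among members with a symbol. Filip1l, which encodes a filamin A interacting protein-like protein, had 65, 76 and 91 peaks in cocaine against 41, 37 and 66 in saline. It ranked 4 of 251 in saline and 42 in cocaine, and its highest saline library (66 peaks) passed its lowest cocaine library (65 peaks). Filip1l overlaps Cmss1, which was listed in cocaine alone with 24, 17 and 19 peaks. Myo3a, an unconventional myosin known for its part in the stereocilia of inner ear hair cells, had 57, 60 and 74 peaks in cocaine against 34, 30 and 26 in saline. Its groups do not overlap, and its ratio was 2.12.

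Arhgap21, which acts at the Golgi and at cell junctions, had 27, 21 and 29 peaks in cocaine against 26, 25 and 27 in saline. The means, 25.7 ± 4.16 and 26.0 ± 1.0, differ by less than the spread between libraries. Rtkn had 16, 3 and 5 peaks in cocaine against 5, 5 and 3 in saline, so its ratio of 1.85 rests on cocaine library 1 and is 0.923 without it. Rab26, a Rab GTPase known for its place on synaptic and secretory vesicles, had 6, 11 and 5 peaks in cocaine against 8, 7 and 3 in saline. Tubgcp4, a subunit of the gamma-tubulin ring complex that starts microtubules, had 16, 8 and 18 against 11, 7 and 4.

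**Figure D2:**
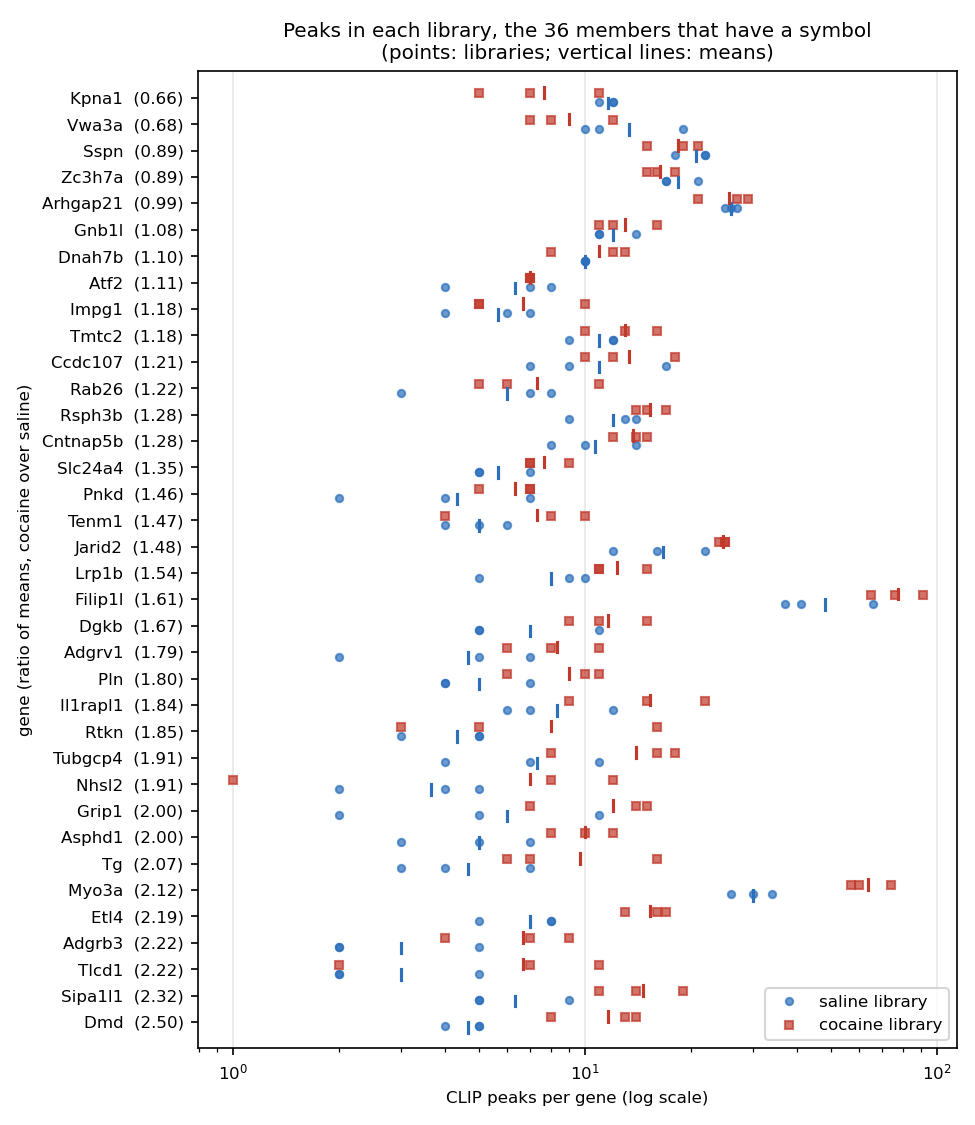
CLIP peaks per gene (horizontal, log scale) in each cocaine library (red squares) and each saline library (blue circles) for the 36 members that have a symbol, ordered by ratio, with vertical lines at the means of 3 libraries. From Kpna1 (5 to 11 peaks in cocaine, 11 to 12 in saline) down to Pnkd the points of both treatments overlap. Below Pnkd some genes have treatments apart, among them Jarid2, Myo3a and Dmd (8 to 14 against 4 to 5). Others there still overlap, among them Grip1, Tg, Adgrb3 and Tlcd1.

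Of 18 genes of the dystrophin-associated complex, 2 were listed in both treatments, and both fell within the limit, as did 49 of all 251 shared genes. This complex links the cytoskeleton through the plasma membrane to the extracellular matrix in muscle and also in brain. Sspn encodes sarcospan, a membrane-spanning member of the complex. It had 15, 21 and 19 peaks in cocaine against 18, 22 and 22 in saline, with overlapping groups and a ratio of 0.887. Dmd, the gene of dystrophin itself, had 8, 14 and 13 peaks in cocaine against 5, 5 and 4 in saline, with groups apart. Its ratio lies on the limit, and it met the rule without 3 of the 6 libraries but not without the other 3, where the ratio reached 2.89. Of the remaining genes of the complex, Sgcz (6, 7 and 6 peaks) and Sntg1 (14, 12 and 19 peaks) were listed in cocaine alone, and 14 in neither.

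Genes of cilia and axonemes were represented by Dnah7b, a dynein heavy chain, and by Rsph3b, a radial spoke protein. Dnah7b had 13, 8 and 12 peaks in cocaine and exactly 10 in each saline library. Of 27 dynein heavy chain and axoneme genes, 5 were listed and the other 4 (Dnah1, Dnah3, Dnah17 and Cfap43) were listed in cocaine alone, with means of 6.67 to 25.0 peaks. Rsph3b had 15, 17 and 14 peaks in cocaine against 9, 14 and 13 in saline. Its near-identical neighbour on chromosome 17, Rsph3a, had 24, 33 and 18 against 5, 8 and 4. How the authors treated reads that align to both copies is not stated, so the split of peaks between them is uncertain.

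Several members encode membrane proteins of neuronal adhesion and synapse formation, and all of these but Cntnap5b had a saline mean below 10 peaks. Cntnap5b, a contactin-associated protein of the neurexin superfamily, had 15, 14 and 12 peaks in cocaine against 14, 8 and 10 in saline. Of its relatives, Cntnap5a was listed in cocaine alone (11, 5 and 6 peaks) and Cntnap5c in saline alone (2, 1 and 9). Tenm1, a teneurin, had 4, 10 and 8 peaks against 6, 5 and 4. Lrp1b, a large receptor of the low-density lipoprotein receptor family, had 11, 15 and 11 against 9, 5 and 10, with each cocaine library above each saline library.

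Il1rapl1, a synaptic adhesion protein of the interleukin-1 receptor family, had 22, 9 and 15 peaks in cocaine against 12, 6 and 7 in saline. The adhesion G protein-coupled receptors Adgrv1 (means 8.33 and 4.67 peaks) and Adgrb3 (6.67 and 3.0) had overlapping groups. Grip1, a scaffold of AMPA-type glutamate receptors, had 14, 7 and 15 peaks in cocaine against 11, 5 and 2 in saline, and its ratio was 2.0. Grip1 overlaps the antisense RNAs Grip1os1 and Grip1os2, for which the cocaine means were 18.0 and 24.7 peaks and the saline means 4.33 and 4.0. At this locus the coding gene and its antisense partners thus had unlike ratios over all libraries, and reads may be shared between them. The contrast is imprecise, since the ratio of Grip1 was 3.43 without saline library 1. Grip1os1 had 9, 18 and 27 peaks in cocaine against 2, 9 and 2 in saline, and its groups touch at 9 peaks. Grip1os2 had 25, 17 and 32 against 4, 2 and 6, with groups apart. Sipa1l1, a Rap GTPase-activating protein of dendritic spines, had 11, 19 and 14 against 5, 5 and 9, with groups apart.

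The fixed lists of synaptic, channel and signalling genes contributed no member, but only 1 or 2 genes of each were in both treatments. Of all 251 shared genes 49 were members, so a lack of members among so few genes says little. Of 42 glutamate receptor and postsynaptic genes, 1 was listed in both treatments, Dlgap1 at a ratio of 5.0. Among 38 presynaptic genes, Syn3 (3.67) and Cask (3.36) were in both, and among 46 calcium, potassium and sodium channel genes Kcnq1 (6.54) and Kcnip4 (12). Gnal was the only one of 35 dopamine and opioid signalling genes in both, at 3.43. Igf2bp3 was the only one of 21 genes of m6A writers, erasers and readers, at 5.39. A further 3 glutamate receptor and postsynaptic genes, 2 presynaptic genes and 4 channel genes were listed in saline alone. In cocaine alone these numbers were 4, 2 and 4. Such genes have no ratio and could not be members. The lowest mean of any gene listed in cocaine was 6.33 peaks, so a low count there leaves a gene out. Grip1, Il1rapl1 and Sipa1l1 were not in those lists.

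The remaining named members share no single role. Vwa3a, which encodes a protein with a von Willebrand factor A domain, had 12, 7 and 8 peaks in cocaine against 19, 10 and 11 in saline, the second lowest ratio (0.675). Gnb1l, a WD-repeat protein gene, had 11, 12 and 16 against 14, 11 and 11. Tmtc2, an endoplasmic reticulum protein that takes part in O-mannosylation of cadherins, had 13, 10 and 16 against 12, 9 and 12. The counts of both treatments overlap for all of them. Ccdc107 had 18, 12 and 10 peaks in cocaine against 7, 9 and 17 in saline, and saline library 3 exceeded cocaine libraries 2 and 3.

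Impg1, a proteoglycan of the retinal interphotoreceptor matrix, had 10, 5 and 5 peaks in cocaine against 7, 6 and 4 in saline. Slc24a4, a potassium-dependent sodium/calcium exchanger, had 7, 9 and 7 against 5, 7 and 5. Pnkd, a gene mutated in a human paroxysmal dyskinesia, had 7, 5 and 7 against 2, 7 and 4, and it overlaps the listed gene Tmbim1 (means 16.0 and 2.33). The treatments overlap in each of these genes. Dgkb, a diacylglycerol kinase abundant in striatal neurons, had 15, 9 and 11 against 11, 5 and 5, and Pln, the inhibitor of the calcium pump of the sarcoplasmic reticulum, had 6, 11 and 10 against 4, 7 and 4. Tg, the thyroglobulin gene, had 16, 6 and 7 peaks in cocaine against 3, 4 and 7 in saline. Asphd1 had 8, 12 and 10 against 5, 7 and 3, and Etl4 16, 17 and 13 against 5, 8 and 8, both without overlap. Nhsl2 (8, 1 and 12 against 4, 2 and 5) and Tlcd1 (2, 7 and 11 against 2, 5 and 2) had the highest coefficients of variation in cocaine after Rtkn (79.5 and 67.6%, against 87.5%).

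Of the 13 members without a symbol, 3 had a ratio below 1. ENSMUSG00000086324 had 8, 6 and 8 peaks in cocaine against 9, 11 and 9 in saline. It was the only one of the 251 shared genes (0.398%) in which every cocaine library was below every saline library. The lowest listed mean was 6.33 peaks in cocaine and 1.33 in saline, so genes with few cocaine peaks are missing from the shared genes. ENSMUSG00000082697 had 15, 14 and 16 against 15, 19 and 14, and ENSMUSG00000097347 had 11, 5 and 7 against 4, 12 and 8. Among these 13, ENSMUSG00000092267 came next to the leading gene, and had 61, 53 and 53 peaks in the cocaine libraries against 33, 32 and 20 in saline. The other 8, beside ENSMUSG00000092329, had means of 8.33 to 27.3 peaks in cocaine and 3.67 to 15.3 in saline.

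In 34 of the 49 members the counts of the treatments overlapped, and in 14 every cocaine library was above every saline library, against 77.7% of all 251 shared genes. Since the rule used this contrast, that difference follows from the choice. Each gene's share of the peaks in shared genes was fitted over all shared genes with edgeR's quasi-likelihood test on totals scaled by TMM factors. Of 202 genes that passed its filter on low counts, 17.8% had a lower share in cocaine at a false discovery rate of 0.05 and 10.4% a higher share. Of the 49 members, 38 passed the filter and 33 were called lower, which again follows from the choice. Without cocaine library 1, 2 or 3 the filter left 17 members each time, and all 17 were called lower, which also follows from the choice. Over all genes tested in those settings, 17 of 108, 20 of 103 and 17 of 105 were called lower. The balance of calls depends on the scaling: with TMM factors 36 genes were lower and 21 higher, and with plain totals 29 were lower and 31 higher, all 29 of the lower ones members. With TMM factors the log2 differences in share of the 38 members tested ran from -2.88 in Kpna1 to -0.97 in Dmd, with a median of -1.79. Dmd and Sipa1l1 were not called (adjusted p = 0.115 and 0.0728, edgeR's quasi-likelihood test), nor were 3 members without a symbol. For Filip1l the difference was -1.61 (SE 0.25) and for Arhgap21 -2.32 (SE 0.32). All these values of members are a description, since the rule used the same contrast.

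The limit on the ratio was also applied to 2 cocaine and 2 saline libraries, and the ratio was read in the pair left out, for each of the 9 pairs. The candidates were still the 251 genes listed in both tables, and the lists rest on all 3 libraries of a treatment, so the pair left out is outside the ratio limit but not outside the listing. Between 48 and 57 genes were chosen, and their median ratio in the pair left out was 1.6 to 2.17, against 5.05 to 6.0 for the other shared genes. The ratio in the pair left out was 2.5 or below for 56.1 to 73.6% of the chosen genes and for 13.9 to 18.2% of the others. Neither the medians nor these shares overlapped between chosen and other genes. The 9 pairs share libraries, so they are not independent and carry no p-value. Of the 49 members, 36 met the rule without any single library, and 13 lost their place without at least 1, among them Dmd, Sipa1l1, Grip1, Adgrb3, Tubgcp4, Nhsl2, Tlcd1 and Tg. Leaving out 1 library in turn moved the ratio of Grip1 between 1.5 and 3.43 and that of Tlcd1 between 1.5 and 3.33. A further 26 genes met it without some library.

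**Figure D3:**
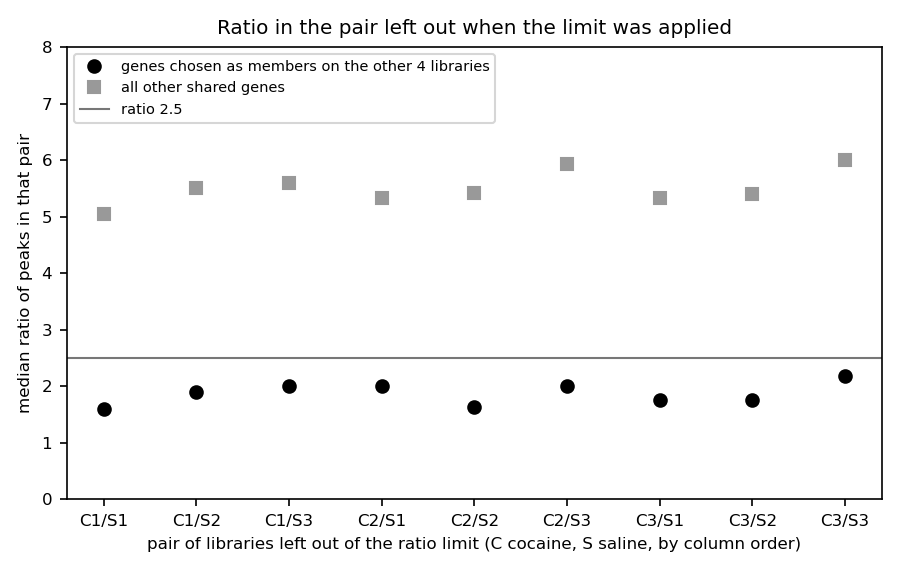
Median ratio of peaks, cocaine over saline, in each of the 9 pairs of 1 cocaine library (C) and 1 saline library (S) that were left out when the limit of 2.5 was applied to the other 4, among the 251 genes listed from all 6 libraries. Chosen genes (black) had medians of 1.6 to 2.17 and the other shared genes (grey squares) of 5.05 to 6.0, on either side of the line at 2.5.

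The spread between libraries of a treatment was of the same order in members and in other shared genes. The median coefficient of variation was 23.1% in cocaine and 32.9% in saline for members, and 25.8% and 42.3% for the other 202. Members had more peaks in saline (median 8.0 against 6.0) and fewer in cocaine (12.7 against 33.3), as the rule favours. A library count below about 5 peaks leaves a ratio imprecise. The saline mean was under 5 in 9 members. Further members had a higher mean but a single saline library under 5, among them Atf2 (4 peaks) and Grip1 (2 peaks).

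Many of the named members are long genes. The median length of the 36 was 166.4 kb, against 86.8 kb for the 90 other coding genes in both treatments and 17.1 kb for all 21896 coding genes of the annotation. Of the 36, 10 exceed 500 kb (27.8%), against 13 of the 90 (14.4%). Above 1000 kb the shares are close, 3 of the 36 (8.33%) against 7 of the 90 (7.78%). Dmd (2390 kb), Lrp1b (2058 kb) and Il1rapl1 (1375 kb) are the longest, followed by Tenm1, Etl4, Adgrb3, Dgkb, Cntnap5b, Grip1 and Adgrv1. The lengths span the same range in both groups, and no test was made of the difference.

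**Figure D4:**
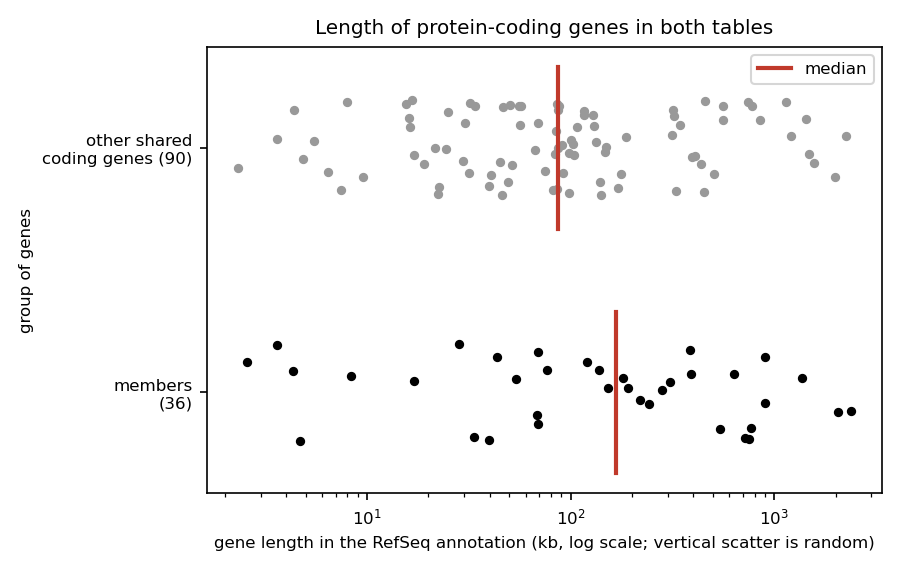
Length of the protein-coding genes in both tables (horizontal, kb, log scale), 36 members in black and 90 other genes in grey, with medians in red; the vertical scatter within a group is random. The medians are 166.4 and 86.8 kb and the 2 groups cover the same range.

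Per length, the order of the members changed. Expressed as peaks per 10 kb of gene, the saline level ran from 0.0195 in Dmd to 42.6 in Ccdc107, with a median of 0.697. Ccdc107 spans 2582 bases on chromosome 4 from 43493340 to 43495921, and Asphd1 (3.60 kb), Tlcd1 (4.30 kb) and Rab26 (4.69 kb) are also short, with 13.9, 6.97 and 12.8 saline peaks per 10 kb. Sspn had 6.20 ± 0.692 peaks per 10 kb in saline and 5.50 ± 0.916 in cocaine, and Arhgap21 2.15 ± 0.0828 and 2.13 ± 0.345. In cocaine the median of the members was 0.918 peaks per 10 kb, against 4.76 in the other coding genes, while in saline it was 0.697 against 0.899. The rule favours low cocaine counts in members, and gene length, which the rule did not use, also enters these values. How much of the cocaine difference goes with each was not tested.

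Overlaps with other genes matter because peaks of a gene and of its overlapping neighbour may not be separable. Of the 36, 27 overlap another annotated gene of any kind (75.0%), 12 a coding gene (33.3%) and 3 a listed gene (8.33%): Filip1l, Grip1 and Pnkd. Among the 90 other coding genes these shares were 83.3, 48.9 and 24.4%, and the difference was not tested. Arhgap21, Sspn, Vwa3a, Gnb1l, Jarid2, Rsph3b, Rab26, Rtkn and Ccdc107 overlap no gene of the RefSeq table, although the counts of Rsph3b may be shared with its copy Rsph3a. Listed genes without a RefSeq match have no position here, so overlap with them was not checked. Small RNA genes overlap 10 of the 36 (27.8%) and 17.8% of the 90 other coding genes, a difference that was not tested. Those at members include the microRNA genes Mir6336 in Lrp1b and Mir7653 at Tlcd1. The tables give no peak positions, so whether any peak lies on them, in an exon, an intron or a UTR, is unknown.

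The named members lie on 14 chromosomes, 6 of them on chromosome 2 and 4 each on chromosomes 1, 16 and X. Etl4 and Arhgap21 are neighbours on chromosome 2, separated by 37.4 kb with no coding gene between them. Etl4 (19910207 to 20810535) had a ratio of 2.19 and Arhgap21 (20847919 to 20968691) of 0.987. Myo3a lies 1259 kb further on, past 3 coding genes, none of them listed. The X-linked neighbours Dmd and Il1rapl1 are 1536 kb apart. Whether the members cluster in the genome was not tested.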

How the data were processed

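YTHDF1 CLIP was made from mouse striatum in 3 cocaine and 3 saline libraries. Per the submitters' processing notes, reads went through cutadapt and STAR on mm10, without versions or settings; CLIPper is named by the tables alone. No source states its threshold, duplicate handling, strand setting, use of input or the rule giving peaks to genes. What the authors deposited are counts of peaks per gene and library, per the file headers and values; the authors' deposited mean signal of the 3 columns was used only to check them. Columns carry no replicate number and are called 1 to 3 by order. Repeated lines of a gene held equal counts and were used once.

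All listed genes of both tables that met the rule are members. They and the gene lists were chosen with earlier results of these data known. Every member may be named; the rule gave full values to named members with most saline peaks or lowest ratios, members with a ratio below 1, the leading member without a symbol and members in a fixed list, and other members given in full were added after their values were seen. One of the fixed lists is not reported here. Groupings by role outside those lists were made after values were seen. Coordinates and lengths are RefSeq's, GRCm38.p6, matched by symbol for all 36 named members. The 13 others have no symbol and were not matched. The share test used edgeR 4.0.16 (TMM, filterByExpr, quasi-likelihood, Benjamini-Hochberg) in R 4.3.3, tested on simulated data; DESeq2 1.42.0 was an alternative. Python 3.11.15, pandas 2.3.3 and NumPy 2.4.6 did the rest. Precision is limited by peak number; p-values would measure only spread between libraries, which may be technical.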

Additional observations from a re-analysis of the deposited data

How the results depend on the processing

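The number of members was 49, and 49 to 56 when 1 library was left out. A ratio limit of 2 gave 37 members and a limit of 3 gave 63. The median ratio of 1.61 was 1.47 to 1.64 when 1 library was left out with the members kept, 1.51 over members with a symbol, 1.41 over those with at least 5 saline peaks, and 1.6 to 2.17 in the pairs of libraries left out when the limit was applied. The ratio of summed peaks, 1.80 in all, was 1.73 to 1.86 without 1 library, 1.48 without ENSMUSG00000092329, 1.44 over members with a symbol and 1.78 to 2.14 in those pairs. The share test called 57 of 202 genes, 33 of them members, and 23 to 49 genes (17 to 27 members) without 1 library. Without cocaine library 1, 2 or 3 it called 24, 27 and 23 genes with 17 members each time, after the filter on low counts left 108, 103 and 105 genes to test. Without saline library 1 it called 33. DESeq2 called 43. The split of higher to lower calls was 21 to 36 with TMM factors and 31 to 29 with plain totals, which moved the median of all tested genes from -0.02 to 0.19 on the log2 scale. No paired analysis was possible because the columns carry no replicate numbers. Alternatives on the spread between libraries and on keeping Uros were chosen after seeing the data. The depth of the libraries is unknown, which limits every ratio here.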
